A study of Homo sapiens with 6 samples.

Results

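The genes of the nuclear pore complex and of the nucleocytoplasmic transport machinery were examined for GABPA peaks in A-375 cells, an established line from a human melanoma. The set holds 45 genes chosen by name, of the 19974 genes that RefSeq lists as protein-coding on the autosomes and X. It has 30 nucleoporin genes, which are 16 genes of the pore scaffold, 9 of FG nucleoporins and 5 of peripheral proteins without FG repeats, and it has 4 genes of the Ran cycle and 11 of transport receptors. Each gene was put in only 1 class, by role. The scaffold class includes the membrane proteins of the pore, POM121 among them, so the FG counts leave POM121 out. A gene was called marked when its RefSeq span began or ended at most 1 kb from a peak summit.

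GABP is a transcription factor made of GABPA, the ETS family subunit that contacts DNA, and a B subunit, which GABPB1 or GABPB2 encodes. GABPA was immunoprecipitated with 1 antibody from parental A-375 cells, from A-375 cells with a knockout at ROSA26, and from A-375 cells in which exon 2 of the GABP B1 subunit was knocked out and TERT, the catalytic subunit of telomerase, was then knocked in. Each condition had 1 ChIP library and 1 input, the knockout lines came from single sorted cells, and the B1 edit, the TERT knock-in and the clone cannot be told apart. There is no replicate, so no test between conditions was made. Peak lists hold no expression values, and the melanoma identity of the cells was not tested. The parental, ROSA26 and B1 knockout lists hold 3024, 3857 and 1660 peaks. The commonest background pileup recovered from their values, a measure of depth, was 15.4, 14.2 and 9.86 reads before scaling. The listed values rest on scaled pileups, for which this background was 13.25, 14.22 and 9.11. The recomputed −log10 p given below use the scaled backgrounds. Where no peak is listed, the signal missed the limit of the peak caller at that depth, and the position is not shown to be unbound.

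The nuclear pore is a channel through the nuclear envelope. A scaffold of stacked rings, built from the Y complex and the inner ring, is anchored in the membrane by integral proteins and carries FG nucleoporins, whose phenylalanine-glycine repeats fill the channel and bind passing receptors. Importins and exportins of the karyopherin family carry cargo through these repeats, and the small GTPase RAN sets the direction of travel, since its exchange factor RCC1 sits on chromatin and its activating protein RANGAP1 sits in the cytoplasm.

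Nucleoporin genes were marked in all 3 libraries, and of the Ran cycle and receptor genes XPOT alone was marked, in 1 library. Peaks farther than 1 kb from a span end, among them a strong one at the RefSeq start of TNPO3, do not enter these counts and are described with their genes. Of the 45 genes, 12 were marked in the parental list (26.7%, 95% Clopper-Pearson interval 14.6 to 41.9), against 15.5% of all protein-coding genes. In the ROSA26 list 17 were marked (37.8%, 23.8 to 53.5) against 18.5% of all, and in the B1 knockout list 9 (20.0%, 9.58 to 34.6) against 9.32%. All 12 parental genes were nucleoporin genes, which is 40.0% of 30 (22.7 to 59.4). Of the 15 Ran cycle and receptor genes none was marked in the parental or the knockout list, which allows a share of up to 21.8%, and 1 was marked in the ROSA26 list. The intervals cover counting error over genes only, and genes of a class are not replicates.

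**Figure D1:**
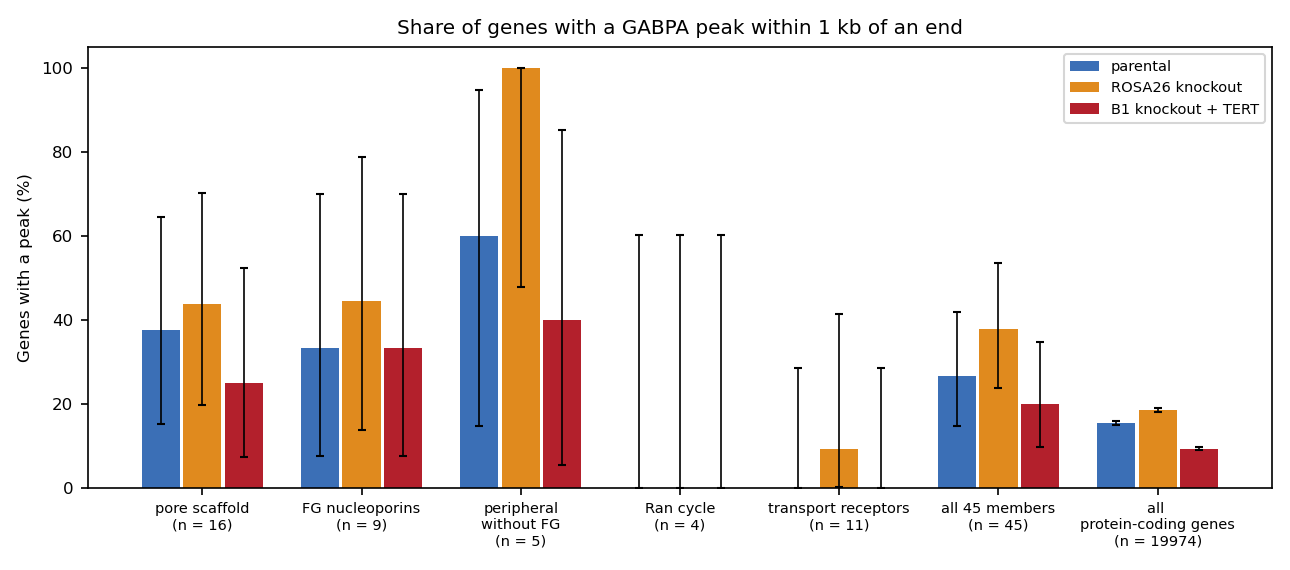
Share of genes (vertical axis, %) with a GABPA peak within 1 kb of an end, by class and library, with exact 95% intervals over genes. In the parental list 6 of 16 scaffold, 3 of 9 FG and 3 of 5 peripheral genes were marked, and none of the 4 Ran cycle or 11 receptor genes.

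The shares of the scaffold and FG classes lay close together. In the parental list 6 of 16 scaffold genes (37.5%, 15.2 to 64.6), 3 of 9 FG nucleoporin genes (33.3%, 7.49 to 70.1) and 3 of 5 peripheral genes (interval 14.7 to 94.7%) had a peak. For the 11 transport receptor genes the count of 0 allows a share of up to 28.5%, so the receptor interval overlaps those of the scaffold and FG classes. The ROSA26 list marked 7, 4, 5 and 1 genes of these classes, and the knockout list 4, 3, 2 and 0. The receptor count depends on the annotated gene ends, because a strong peak at TNPO3 fell just beyond 1 kb (below).

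**Figure D2:**
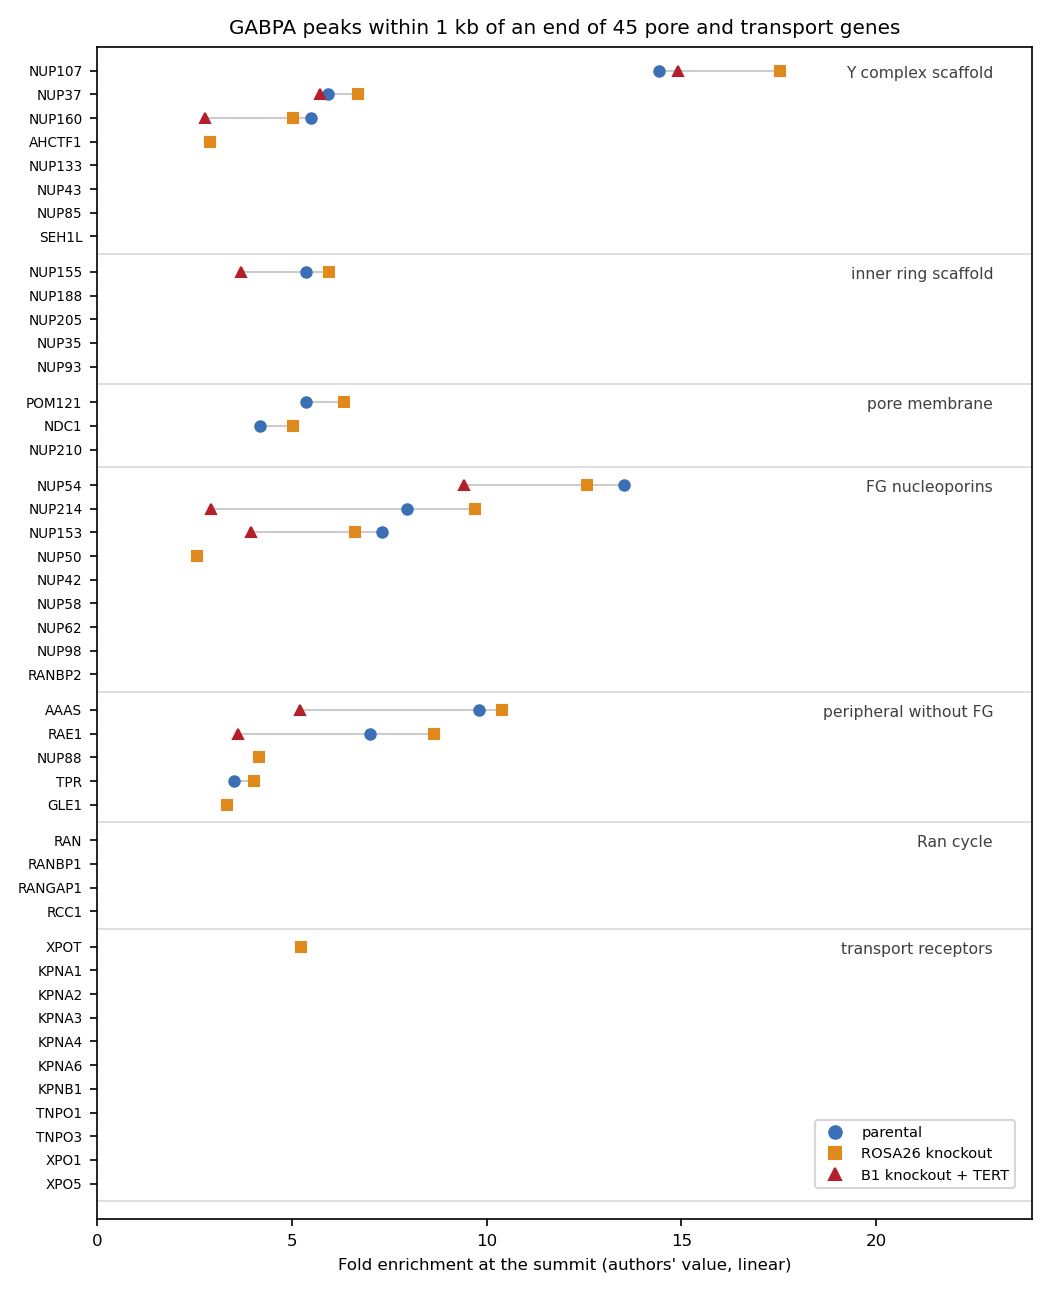
Fold enrichment at the strongest peak of each gene within 1 kb of an end (horizontal axis, the authors' value, linear), by class and library; a gene without a symbol has no such peak. NUP107 and NUP54 have the highest parental folds, at 14.4 and 13.5, and the rows of the Ran cycle are empty.

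Promoter sequences of members with a peak are shown here because they hold the ETS core CCGGAA close to the parental summit. TPR, whose match lay farthest from the parental summit, at 37.5 bp, is not shown. NUP155 and NUP153 had a summit inside the promoter window and no CCGGAA in it. The windows of NDC1, AAAS and RAE1 held none either, but they do not cover the summits of these genes, so the sequence under those peaks was not read. The sequences are RefSeq's for GRCh38.p14, on the strand of the gene and 5′ to 3′, and the capitals mark CCGGAA or its reverse complement TTCCGG. NUP214 and NUP54 are FG nucleoporins, NUP107, NUP37 and NUP160 belong to the Y complex, POM121 is a membrane protein of the pore, NUP35 belongs to the inner ring and TNPO3 is an import receptor.
NUP107, chr12:68686912-68686977, plus strand, before the start: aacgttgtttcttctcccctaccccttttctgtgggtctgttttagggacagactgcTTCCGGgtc
NUP107, chr12:68686977-68687006, plus strand, second match: cgaagggcttgcTTCCGGagagcgggaagg
NUP37, chr12:102120115-102120180, minus strand: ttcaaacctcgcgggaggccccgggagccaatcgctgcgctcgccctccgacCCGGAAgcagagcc
NUP160, chr11:47848367-47848396, minus strand: cccgccccacccCCGGAAgtgacggcgacc
NUP35, chr2:183124334-183124363, plus strand: catagcgcaggtCCGGAAgttacgcaaccc
POM121, chr7:72879245-72879310, plus strand: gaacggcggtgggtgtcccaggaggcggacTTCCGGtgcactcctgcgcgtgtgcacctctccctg
NUP54, chr4:76148471-76148598, minus strand: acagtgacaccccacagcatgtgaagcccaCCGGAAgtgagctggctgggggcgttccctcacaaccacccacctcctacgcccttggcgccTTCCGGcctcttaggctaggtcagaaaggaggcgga
NUP214, chr9:131125477-131125585, plus strand: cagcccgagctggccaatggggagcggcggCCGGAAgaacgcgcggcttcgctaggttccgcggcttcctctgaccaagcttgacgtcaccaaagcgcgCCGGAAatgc
TNPO3, chr7:129055112-129055141, minus strand: ggtatcggtgctgtcgcTTCCGGtccgggt

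Among the peaks within 1 kb of a span end of a member, the one at NUP107, a gene of the Y complex, had the highest fold in each list. NUP107 (chromosome 12, 68686978 to 68745809), a structural stalk protein of the complex, had folds of 14.4, 17.5 and 14.9 in the parental, ROSA26 and knockout lists. Folds are enrichments over the local background as the authors' peak caller gave them. Within their own lists these peaks stood at percentiles 96.1, 97.7 and 97.0 of −log10 p. The summits lay 12, 4 and 9 bp from the annotated start, and the 334, 370 and 219 reads recovered at them have exact Poisson intervals of 299 to 372, 333 to 410 and 191 to 250. NUP107 thus kept its high rank in the 3 lists. A second, weaker peak near the other end of the gene (folds 6.14, 5.19 and 4.52) lay 52, 45 and 96 bp from an end of SLC35E3, a neighbouring gene that shares it.

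The other marked genes of the Y complex had weaker peaks. NUP37 (chromosome 12, 102073103 to 102120114) had folds of 5.94, 6.70 and 5.73 in the parental, ROSA26 and knockout lists, with summits 9, 36 and 1 bp from its start. PARPBP, whose end lay 78, 33 and 68 bp from the same summits, shares this peak. NUP160 (chromosome 11, 47778118 to 47848544) had folds of 5.49, 5.03 and 2.78. The NUP160 peak was among the weakest of the knockout list, at percentile 3.95 of −log10 p, against 44.0 for the parental and 52.2 for the ROSA26 peak. AHCTF1 (ELYS), which tethers the Y complex to chromatin, had a peak in the ROSA26 list alone (fold 2.89). NUP133, NUP85, NUP43 and SEH1L had none within reach in any list.

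In the inner ring NUP155 (chromosome 5, 37288137 to 37371106) was the 1 gene of 5 with a peak near an end of its span. Its folds were 5.36, 5.95 and 3.69, at 24, 45 and 3 bp from the start, and its knockout peak stood at percentile 12.3. The promoter window of NUP155, which runs from 250 bases before the start to 50 after it, held no CCGGAA. It held 11 copies of the shorter ETS core GGAA on either strand, against a median of 3 over all windows, and 0.33% of windows held at least as many. NUP153, the other member with a summit in the window and no CCGGAA, had 6 copies, and 15.7% of windows held at least as many. The 70 bases before the start of NUP155, which hold only part of its 11 copies, are shown with GGAA or TTCC in capitals.
NUP155, chr5:37371107-37371176, minus strand: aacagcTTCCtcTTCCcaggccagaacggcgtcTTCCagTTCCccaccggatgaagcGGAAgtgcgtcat

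NUP35, another inner ring gene, was unmarked by the rule although a peak lay at a RefSeq start inside its span. The gene runs from 183117514 to 183161680 on chromosome 2, and the parental summit at 183124352 was 6838 bp inside that span and 91 bp from the listed start. The folds of this peak were 7.8, 7.3 and 4.5 in the parental, ROSA26 and knockout lists. NUP188 and NUP205 had no peak within reach or inside the span, and NUP93 had internal peaks in the controls alone.

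Both marked genes of the pore membrane had a peak in the controls and none in the knockout list. NDC1 (chromosome 1, 53765478 to 53838296), which anchors the ring in the membrane, had a parental fold of 4.19 and a ROSA26 fold of 5.02, with summits 302 and 373 bp from the start. POM121 (chromosome 7, 72879357 to 72951459) had folds of 5.36 and 6.33, with summits 92 and 96 bp from the start. POM121C is a near-identical copy of POM121, so reads of either could have been placed at the other and the POM121 value is uncertain. The third membrane gene, NUP210, was unmarked.

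In the FG class as set here, which leaves out POM121, the genes with a parental peak were all listed in the knockout as well. NUP54 (chromosome 4, 76114664 to 76148397), a subunit of the central channel, had folds of 13.5, 12.6 and 9.41 in the parental, ROSA26 and knockout lists, with 223, 265 and 118 reads at the summits. NUP153 (chromosome 6, 17615037 to 17706925), a basket protein of the nuclear face, had folds of 7.31, 6.63 and 3.94. NUP214 (chromosome 9, 131125586 to 131234663), which faces the cytoplasm, had folds of 7.95, 9.70 and 2.93. The knockout peaks of NUP153 and NUP214 stood low in their list, at percentiles 8.22 and 20.6, whereas NUP54 stood at 79.0.

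At NUP214 the low knockout fold came with a high local background. The peak caller's local background there was 1.51, 1.69 and 3.18 times the commonest background of the parental, ROSA26 and knockout libraries. The summit itself had 193, 242 and 94 reads, or 12.5, 17.0 and 9.53 times the commonest background. NUP50 had a weak peak in the ROSA26 list alone (fold 2.56, percentile 2.04). NUP62, NUP58, NUP98, NUP42 and RANBP2 had none within reach of their ends. RANBP2 has near-identical copies in the genome, so reads that map to several places could be missing there.

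Each of the 5 peripheral genes without FG repeats was marked in the ROSA26 list, and 2 of them in the knockout list. AAAS (chromosome 12, 53307460 to 53321610), the gene of the pore protein aladin, had folds of 9.80, 10.4 and 5.22, with summits 166, 186 and 219 bp inside the gene. RAE1 (chromosome 20, 57351255 to 57379202), which takes part in mRNA export, had folds of 7.0, 8.64 and 3.62. TPR (chromosome 1, 186311652 to 186375253), the filament protein of the nuclear basket, had folds of 3.52 and 4.02 in the controls and no knockout peak. ODR4, whose end lay 394 and 331 bp from those summits, shares the TPR peak. NUP88 (fold 4.15) and GLE1 (fold 3.34), both of the cytoplasmic face, were listed in ROSA26 alone, and RPAIN had an end 323 bp from the NUP88 summit.

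None of the 4 Ran cycle genes was marked. RAN and RCC1 had no peak within reach or inside the span. RANBP1 had a parental summit 1208 bp inside its span (fold 5.4) and a ROSA26 summit 1177 bp inside it (fold 9.3). RANGAP1 had an internal peak in the controls (folds 4.5 and 4.7), 324 and 284 bp from an internal RefSeq start. Neither internal peak was listed in the knockout.

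Among transport receptor genes XPOT, the exportin of tRNA, had the only peak within 1 kb, with a fold of 5.25 in the ROSA26 list, 124 bp from its start. TNPO3, the import receptor of splicing factors, had a peak just beyond the 1 kb limit. Its summit was 1081, 1053 and 1074 bp inside the span (chromosome 7, 128954185 to 129056193) and 1, 29 and 8 bp from the RefSeq start in the promoter table. The TNPO3 folds of 17.5, 16.1 and 16.2 put the peak at percentiles 98.3, 98.0 and 95.0 of the 3 lists, beside 96.1, 97.7 and 97.0 for NUP107. Among the members inside the limit, the farthest summit used was that of NDC1, at 373 bp. The importin alpha genes KPNA1, KPNA2, KPNA3, KPNA4 and KPNA6, the importin beta gene KPNB1, TNPO1 and the exportin genes XPO1 and XPO5 had no peak within reach or inside the span.

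Counting summits within 1 kb of any RefSeq start in place of the span ends, an alternative chosen after seeing the data, changed the receptor count. The parental, ROSA26 and knockout lists then marked 15, 18 and 11 of the 39 members with a start. NUP35 and TNPO3 joined in all 3 lists and RANGAP1 in the controls, while GLE1 and AHCTF1, which have no entry in the table, left the ROSA26 count. Over all 15813 genes with a start, 16.9, 20.0 and 10.3% were marked on this count.

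Among the 12 members with a peak in each control, 9 were also listed in the knockout (75%, 42.8 to 94.5), against 60.4% of the 3063 protein-coding genes marked in both. The 9 were NUP107, NUP37, NUP160, NUP155, NUP54, NUP153, NUP214, AAAS and RAE1, and the 3 without a knockout peak were NDC1, POM121 and TPR. By class, 4 of 6 scaffold, 3 of 3 FG and 2 of 3 peripheral genes were kept, with POM121 counted as scaffold. The scaffold interval (22.3 to 95.7%) and the FG interval (29.2 to 100%) overlap widely, and no difference between the classes can be read from counts this small.

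Among the 12 members, those without a knockout peak had the lower parental folds. Parental folds ran from 3.52 to 5.36 at these 3 genes and from 5.36 to 14.4 at the 9 others. In the ROSA26 list the ranges were 4.02 to 6.33 and 5.03 to 17.5, and they overlap. The ROSA26 peaks of POM121, NDC1 and TPR stood at percentiles 51.5, 49.9 and 35.6 of −log10 p in that list. Over all genes marked in both controls the share kept was 5.72% below a parental fold of 4, 30.7% from 4 to 6, 66.8% from 6 to 8, 92.8% from 8 to 10 and 98.9% from 12 up. At these shares 6.5 of the 12 members would have a knockout peak, and 9 had one. NUP155, NUP160 and NUP37 were listed and NDC1 and POM121 were not among the 5 members with folds from 4 to 6.

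**Figure D3:**
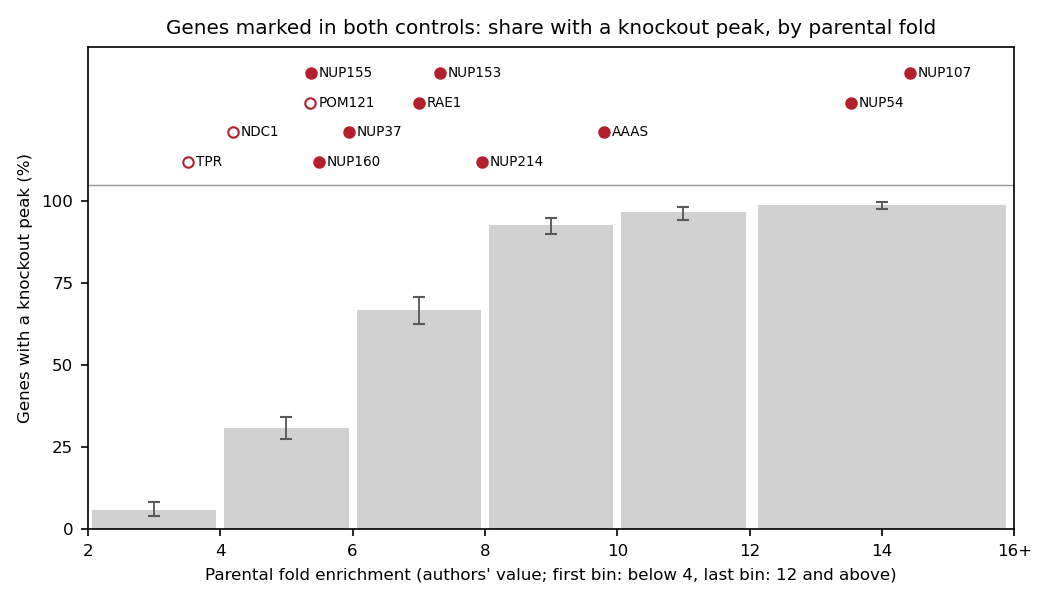
Share of genes marked in both controls that have a knockout peak (vertical axis, %, bars with exact 95% intervals) by parental fold (horizontal axis), over 3063 genes. Points above the bars place the 12 members by parental fold, filled where a knockout peak was listed (9) and open where none was (TPR, NDC1 and POM121).

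The −log10 p of the control peaks is given as listed and as recomputed at the background of the knockout library. The recomputation scales all peaks of a library by the same factor, so it is not a separate comparison. As listed, the parental values reached 39.2 at POM121 without a knockout peak and began at 44.7 at NUP160 with one. The ROSA26 values at the same genes were 56.9 and 58.7. The matching ranges over all genes were not computed, so nothing is at hand to set this separation of 3 from 9 genes against. Recomputed from the parental peaks, the −log10 p was 15.6 to 27.3 for the 3 genes without a knockout peak and 30.9 to 155 for the 9 with one. From the ROSA26 peaks the ranges were 21.0 to 36.7 and 37.6 to 205. The lowest −log10 p listed in the knockout was 4.74 and its 10th percentile 13.6, and the recomputed values of NDC1, POM121 and TPR are above both. The recomputed values keep the enrichment of the control peak unchanged, and the part of depth in the missing peaks was not tested. NUP155 and POM121 had the same parental fold of 5.36, but 136 and 111 reads at the summit.

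All 12 parental members were also in the ROSA26 list, and 5 more were in ROSA26 alone: NUP50, AHCTF1, GLE1, NUP88 and XPOT. Of the 17 ROSA26 members 12 thus had a parental peak, against 82.9% of all ROSA26-marked genes. The folds of these 5 were 2.56 to 5.25, against 4.02 to 17.5 for the other 12. None had a knockout peak, and over all genes marked in ROSA26 and not in the parental list 1.11% had one. Recomputed at the parental background their −log10 p was 6.74 at NUP50 and 40.9 at XPOT, above the lowest listed parental value of 5.86. This keeps the ROSA26 enrichment unchanged, and the part of depth was not tested.

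Heights were also compared as reads at the summit divided by the commonest background of the library, a ratio that removes depth but not differences in the yield of the immunoprecipitation. Over the 1423 peaks near a gene end that were listed in the 3 libraries, the median ratio of knockout to parental height was 0.72 (quartiles 0.59 and 0.85), and that of knockout to ROSA26 height 0.58 (0.48 and 0.71). The 10 such member peaks had medians of 0.72 and 0.52. The members as a group therefore lay close to the other shared peaks. Because a peak had to be listed in the knockout to be counted, these medians leave out the genes without one.

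NUP107 and AAAS stood at opposite ends of the members. The height of NUP107 was 21.7, 26.0 and 22.2 in the parental, ROSA26 and knockout libraries, a knockout to parental ratio of 1.02, and 93.0% of the 1423 peaks had a lower ratio. NUP37 was next, with 8.44, 10.3 and 7.81 and a ratio of 0.93. AAAS had 12.7, 16.4 and 5.68, a ratio of 0.45, and 4.43% of the peaks had a lower one. The AAAS summit had 195 reads in the parental library (Poisson interval 169 to 224) and 56 in the knockout (42.3 to 72.7). NUP153 and RAE1 had ratios of 0.55 and 0.57.

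**Figure D4:**
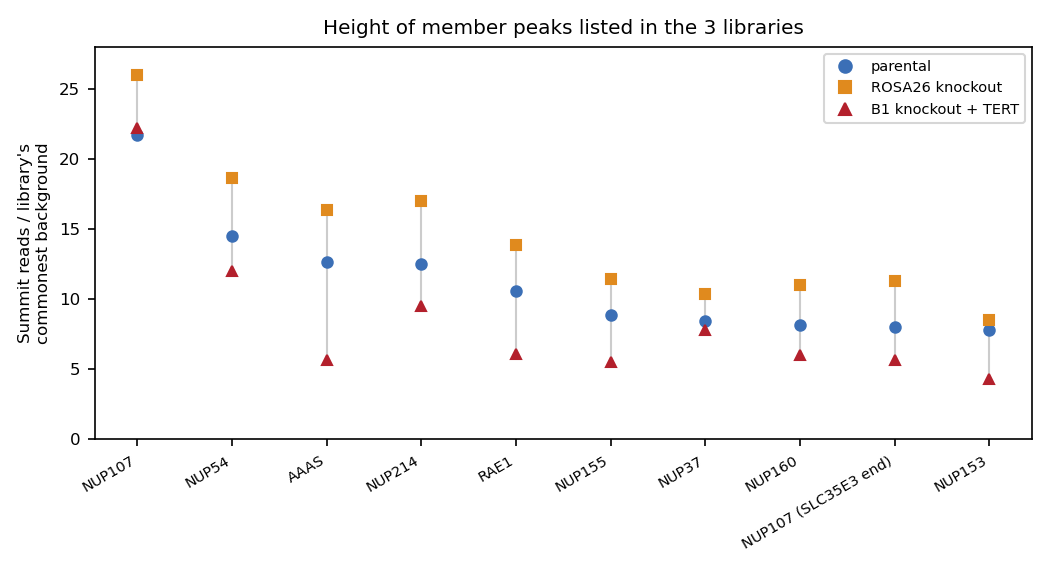
Summit reads divided by the commonest background of the library (vertical axis, a ratio with no unit) at the 10 member peaks listed in the 3 libraries, ordered by parental height; the second NUP107 peak is the one shared with SLC35E3. The knockout value of NUP107 (22.2) sits beside the parental one (21.7), and that of AAAS (5.68) is below the parental value of 12.7.

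The distance from summit to gene end did not set the members to 1 side of the other marked genes. The median distance of members was 116.5 bp in the parental list against 72 bp for all marked genes, 123 against 75 bp in ROSA26, and 17 against 61 bp in the knockout. In the parental list 11 of 12 marked members had a summit within 200 bp of an end, against 76.1% of all marked genes, and in the knockout list 8 of 9 against 79.0%. NUP37, TPR and, by its second peak, NUP107 had another coding gene within reach of a parental summit, which is 3 of 12 against 43.9% of all marked genes. At NUP54 the nearest end was that of the lncRNA LOC124900718, 11, 6 and 3 bp from the 3 summits. The median distance between summits of the same member peak was 8 bp for the parental and ROSA26 lists (13 peaks, at most 71 bp), 10.5 bp for the parental and knockout lists (10 peaks, at most 53 bp) and 23.5 bp for the ROSA26 and knockout lists (10 peaks, at most 72 bp).

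The ETS core CCGGAA was searched on both strands of the RefSeq promoter windows. Of the 39 members with a window 17 held it (43.6%, 27.8 to 60.4), against 26.6% of 15813 protein-coding genes. The longer CCGGAAG, which contains it, was held by 14 members and by 16.5% of all genes, and GGAA, which both contain, by 95.1% of all windows. Among members with a parental peak 7 of 12 held CCGGAA (58.3%, 27.7 to 84.8), against 71.2% of all genes with a parental peak. For NDC1, AAAS and RAE1, which are among those without it, the window does not reach the summit. Among members without a peak in any list the count was 7 of 24 (29.2%, 12.6 to 51.1), against 16.4% of all such genes.

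Where a member's window covered the parental summit, the core lay close to it. There were 11 such members, NUP35 and TNPO3 included, and 9 held CCGGAA, all within 50 bp of the summit, with a median distance of 12.5 bp from the centre of the match. The nearest was NUP214, at 0.5 bp, followed by NUP35 at 3.5, NUP107 at 5.5, TNPO3 at 9.5 and POM121 at 12.5 bp. TPR was farthest, at 37.5 bp. At NUP160 the match shown lay 17.5 bp from the parental and 35.5 bp from the knockout summit. A second NUP160 match, not shown, lay 58.5 bp from the parental and 5.5 bp from the knockout summit. NUP155 and NUP153 were the members with a summit in the window and no CCGGAA. The same held over all genes with a window over a parental summit: 80.1% of 2262 held the core, and 83.9% of those held it within 50 bp.

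**Figure D5:**
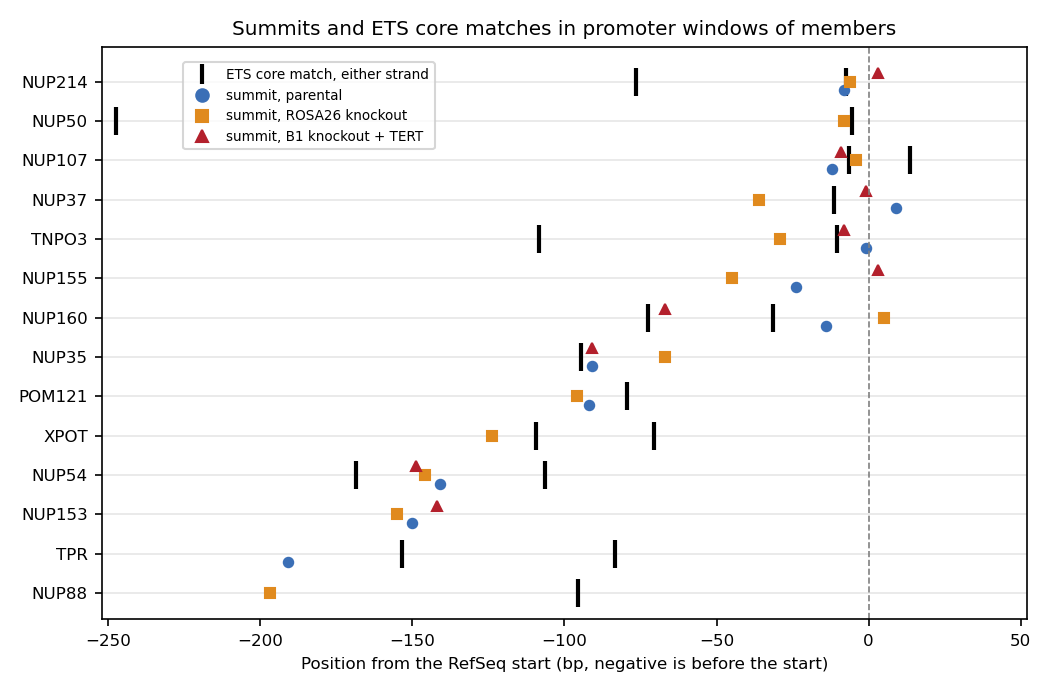
Position from the RefSeq start (horizontal axis, bp) of GABPA summits in the 3 libraries and of ETS core matches on either strand (black bars), in the promoter windows of the members with a summit inside the window. The parental summit of NUP214 lies 0.5 bp from the centre of a match, and the rows of NUP155 and NUP153 have no match.

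Some windows held a match and no listed peak. Of the 7 unmarked members that held CCGGAA, NUP35 and TNPO3 had a peak at that window, and NUP133, SEH1L, NUP58, RCC1 and RANGAP1 had none there. Windows of NUP133 and SEH1L, both of the Y complex, are shown for comparison with those of NUP107 and NUP37.
NUP133, chr1:229508487-229508552, minus strand: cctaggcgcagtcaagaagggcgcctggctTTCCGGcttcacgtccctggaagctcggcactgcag
SEH1L, chr18:12947820-12947885, plus strand: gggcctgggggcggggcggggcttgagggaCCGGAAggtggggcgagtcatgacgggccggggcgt
By class, 7 of 14 scaffold windows, 4 of 9 FG windows and 2 of 9 receptor windows held CCGGAA. The 2 receptors were XPOT and TNPO3, which were also the receptors with a summit inside the window.

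A further 59 genes of the same structures and pathways, listed by role, had peaks too. The parental, ROSA26 and knockout lists marked 24, 26 and 20 of them (40.7, 44.1 and 33.9%), against 26.7, 37.8 and 20.0% of the 45 members. Over all protein-coding genes the shares were 15.5, 18.5 and 9.32%. Of the 23 in both controls 20 were kept (87.0%, 66.4 to 97.2), against 60.4% of all genes. The parental, ROSA26 and knockout lists marked 3, 5 and 3 of 18 further transport receptor and carrier genes. IPO4, an importin, had folds of 19.5, 16.9 and 18.6, and NUTF2, which carries RAN into the nucleus, had 11.2, 15.9 and 8.58. Both peaks lay within 1 kb of an end of another coding gene as well. The NUTF2 values are those of a peak 503, 513 and 515 bp from the 3′ end of the gene. The peak near its start had folds of 2.98 and 3.26 in the controls and was not listed in the knockout. Counted by RefSeq starts, 2 of the 3 genes of this list in both controls were kept (66.7%), against 61.0% of all genes.

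Messenger RNA export genes also had peaks. Of 21 genes 11 were marked in the parental list (52.4%, 29.8 to 74.3), 11 in ROSA26 and 9 in the knockout list, against 15.5, 18.5 and 9.32% of all protein-coding genes. MCM3AP, the scaffold of the TREX-2 export complex, had folds of 14.6, 16.4 and 8.51, and THOC5, of the THO complex, 13, 19.4 and 12.3. Among the 10 export genes that both controls marked, ENY2 (parental fold 5.29) alone was missing from the knockout list. The peaks of MCM3AP and ENY2 were within reach of another coding gene too.

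Nuclear envelope and lamina genes and the remaining pore genes were marked as well. The parental, ROSA26 and knockout lists marked 7, 7 and 6 of 16 envelope genes (43.8, 43.8 and 37.5%). The parental interval was 19.8 to 70.1%. The lists marked 15.5, 18.5 and 9.32% of all protein-coding genes. ZMPSTE24, the protease that matures lamin A, had folds of 14.6, 19.9 and 20.6, and BANF1, which links chromatin to the envelope, 12.7, 13.9 and 11.5, with another coding gene within reach. LEMD2 (parental fold 3.51) had no knockout peak. Of the 4 remaining pore genes 3, 3 and 2 were marked, with SEC13 of the Y complex at folds of 11.7, 11.2 and 6.99 and TMEM33 at 9.69, 12 and 5.18. POM121C, the copy of POM121, was in the controls alone (folds 4.94 and 7.57), as POM121 was.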

How the data were processed

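The submitters' processing notes name Bowtie2, SAMtools, MACS2 and the hg38 build. Tool versions, peak thresholds and whether inputs served as control were not given in the sources used here. Deposited lists, 1 per ChIP sample, give each peak's fold enrichment (a ratio), its −log10 p and −log10 q, and a score equal to 10 times −log10 q without decimals. The 3 inputs were not analysed here on their own. Coordinates are 1-based.

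Reads and background at each summit were solved from the deposited fold and −log10 p with the MACS2 formula, within 0.01 in −log10 p for all peaks, and the solver was tested on simulated data. Gene spans and promoter windows are RefSeq's for GRCh38.p14; 39 of 45 members had a window. Intervals are exact 95% Clopper-Pearson or Poisson. Lists of other genes were named by role, and for each the 2 highest parental folds kept and not kept are given. The members and lists were chosen with earlier results of these data known. Alternatives changed the distance (500 bp, 2 kb), the gene end, the nearest gene, −log10 q of at least 10, list length (1660 peaks) and the overlap. Python 3.11.15, SciPy 1.17.1 and pandas 2.3.3 were used.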

Additional observations from a re-analysis of the deposited data

How the results depend on the processing

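Of 131 recomputed values for 24 results, 115 stayed within their interval or within 1.5 times the count. This is a loose criterion, because the intervals are wide: 42.8 to 94.5% for members kept and 29.2 to 100% for FG genes kept. With the 1660 strongest peaks of each list, the ROSA26 list marked 7 of 45 members, against 9.46% of all protein-coding genes. These were 3 scaffold, 2 FG and 0 receptor genes among the classes compared. The parental list then marked 8 members, against 9.49% of all, with 3 scaffold genes. On those lists all 7 members in both controls (100%) and all 3 scaffold genes in both (100%) had a knockout peak, against 89.1% of all genes. The equal length removes weak control peaks by construction. Within 2 kb of an end, and within 1 kb of a RefSeq start, TNPO3 entered and the receptor counts became 1 parental, 2 ROSA26 and 1 knockout. RefSeq starts gave 4 of 14 envelope genes marked in the parental list in place of 7 of 16, against 16.9% of all genes. All 4 in both controls were kept (100%, 39.8 to 100), as were all 8 mRNA export genes in both (100%, 63.1 to 100). Over all genes 61.0% were kept on this count. Of the envelope genes, TOR1A has no entry among the starts, and the LMNB2 peak lies at the 3′ end, 29373 bp from the 5′ end. With −log10 q of at least 10, the share of members kept was 58.3%, against 58.1% of all genes, and NUP153 and NUP160 left the knockout list. Among the 17 ROSA26 members the share kept was 52.9%, with no all-gene share computed. Over the other alternatives the share of members kept ran from 71.4 to 75%. Over all genes it ran from 57.8 to 61.0%, with no value computed for the overlap settings. No paired analysis was possible because each condition has 1 library. A peak of 1 library sets each call. The knockout library had the lowest background, and the part of depth in its missing peaks was not tested. The recomputed −log10 p of the control peaks of TPR, NDC1 and POM121 lay above the lowest listed knockout value. These values keep the control enrichment unchanged, so they do not test that part.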

Other observations

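Peaks inside the spans of unmarked members, away from their ends, were listed at NUP93 and RANBP2 in the controls only. The parental summit at NUP93 was 13936 bp from the nearest span end (fold 2.5) and the ROSA26 summit 13943 bp (fold 3.6). At RANBP2, whose RefSeq span is long, the nearest summit was 228096 bp from an end (fold 3.9) and 228095 bp in ROSA26 (fold 4.7). Neither lay near a start of the gene in the promoter table.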
